A study of Mus musculus with 8 samples.

Results

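Molecular chaperones of the heat shock, DnaJ and CCT families were examined in mouse regulatory T cells (Tregs) at day 2 of differentiation. The genes were taken by symbol, as those starting with Hsp followed by a digit or by a, b, d, e or h, with Dnaja, Dnajb or Dnajc and a digit, or with Cct2 to Cct8, pseudogenes left out. This gave 77 of the 28239 genes listed, and 62 of them had at least 2 CPM (counts scaled to library size) in at least 4 of 8 libraries, among 12700 genes that met this filter. The tests of chaperones concern these 62 genes, and the 15 others are described by their levels. Naïve CD4+ T cells came from spleens of C57BL/6 mice aged 10 to 12 weeks, of both sexes, and the culture of 2 days held 100 U/ml of IL-2, 5 ng/ml of TGF-β and 1 CD3/CD28 bead for each cell. One group of 4 libraries is labelled Alox15-/-, for mice with a targeted gene of the lipid-oxidising enzyme Alox15, and the other group of 4 libraries is labelled WT. The WT mice and the Alox15-/- mice were bought from different suppliers, so that genotype and source cannot be told apart. The comparison asked which transcripts differ between Tregs of the genotypes.

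Chaperones bind proteins that are not yet folded or have lost their fold. DnaJ proteins, also named Hsp40, deliver such clients to Hsp70 and make it hydrolyse ATP, and Hsp110 proteins and other exchange factors then release the nucleotide. Hsp90 takes over signalling proteins at a late stage of folding, Hsp60 with its Hsp10 lid works inside mitochondria, and the ring-shaped CCT complex folds actin and tubulin in the cytosol. Many of these genes are induced by heat or misfolded protein through heat shock factors, whereas those of the endoplasmic reticulum respond to the unfolded protein response. In T cells, activation and growth raise the demand for protein folding.

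The promoter sequences showed which of these genes carry the letters of a stress element, and they are printed here to set the letters beside the levels of these genes. RefSeq promoters on GRCm38.p6, 250 bases before to 50 after a start, matched 63 of the 77 genes and 50 of the 62 tested. The core of a heat shock element, searched as GAANNTTC, which reads the same on both strands, was present for 9 of the 50 tested genes (18%), against 6.93% of all tested genes with a promoter and 9.04% of all genes with one. A longer form, GAANNTTCNNGAA on either strand, which always holds the core, was present for 4 of the 50 (8%), against 0.521% of all tested genes. The endoplasmic reticulum stress element, searched as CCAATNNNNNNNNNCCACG on either strand, was present for 3 of the 50 (6%), against 0.185% of all tested genes. Capitals mark the matched letters in the sequences, which run 5′ to 3′ along the gene's strand. Hspa1a and Hspa1b encode the inducible cytosolic Hsp70, and the 250 bases before their starts differed at 3 positions.
Hspa1a, chr17:34972157-34972406, minus strand: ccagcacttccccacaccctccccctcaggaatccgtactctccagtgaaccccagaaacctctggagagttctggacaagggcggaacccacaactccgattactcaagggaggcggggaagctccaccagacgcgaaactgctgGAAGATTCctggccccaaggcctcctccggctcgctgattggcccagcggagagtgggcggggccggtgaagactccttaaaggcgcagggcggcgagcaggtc
Hspa1b, chr17:34959239-34959488, minus strand: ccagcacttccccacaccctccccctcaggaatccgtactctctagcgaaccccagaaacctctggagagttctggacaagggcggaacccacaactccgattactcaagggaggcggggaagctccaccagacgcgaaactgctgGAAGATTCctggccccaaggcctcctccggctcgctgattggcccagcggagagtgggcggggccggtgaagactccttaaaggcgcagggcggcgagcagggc

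Shorter windows of 30 bases show the matches of other genes described below, chosen as examples and not by a rule, and Hspb1, Hspb6, Dnajc27 and Dnajc5g also held the core. Hspe1 (Hsp10) and Hspd1 (Hsp60) are transcribed away from each other from starts 216 bases apart, and share a stretch in which 2 long forms overlap around 1 core. Hsph1, an Hsp110, holds the long form just after the RefSeq start, and Dnajb6 holds it before its RefSeq starts. Dnaja1, Dnaja4 and Cct2 hold the core, Dnaja4 at 2 places.
Hspe1, chr1:55088053-55088082, plus strand: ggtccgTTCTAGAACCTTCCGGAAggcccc
Hsph1, chr5:149636280-149636309, minus strand: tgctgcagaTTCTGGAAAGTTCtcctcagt
Dnajb6, chr5:29735843-29735872, plus strand: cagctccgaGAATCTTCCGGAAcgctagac
Dnaja1, chr4:40722333-40722362, plus strand: aaaagcctctaGAAAATTCtacgaggctcg
Dnaja4, chr9:54699458-54699487, plus strand: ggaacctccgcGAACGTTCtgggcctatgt
Dnaja4, chr9:54699496-54699525, plus strand: gcctcctggcgGAACCTTCcgccggcgccg
Cct2, chr10:117063399-117063428, minus strand: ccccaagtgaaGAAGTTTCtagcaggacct
Hspa5 (BiP), Hsp90b1 (Grp94) and Dnajc3, all resident in the endoplasmic reticulum, held the reticulum element, Hsp90b1 at 2 places.
Hspa5, chr2:34772019-34772048, plus strand: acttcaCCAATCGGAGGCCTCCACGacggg
Hsp90b1, chr10:86705633-86705662, minus strand: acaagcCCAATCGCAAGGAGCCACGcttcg
Hsp90b1, chr10:86705528-86705557, minus strand: agagtgCGTGGTGAGGCACGATTGGtgagt
Dnajc3, chr14:118937821-118937850, plus strand: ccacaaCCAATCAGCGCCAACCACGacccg
Exons annotated by GENCODE covered all 30 bases of the windows of Hspe1, Hsph1, Dnajb6, Dnaja1 and Hspa5. They also covered 12 bases of the second Dnaja4 window, so that a place before the start holds for RefSeq starts only. These matches are letters in a window, and binding was not measured.

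The libraries held 3723151 to 9538962 counts on genes, and the biological coefficient of variation was 14.5%. Alox15 itself was higher in the libraries labelled Alox15-/-, at 63.7 to 70.5 CPM (67.2 ± 3.19, SD, n = 4), than in those labelled WT, at 1.88 to 9.02 CPM (5.31 ± 3.61). The log2 fold change was 3.65 (SE 0.299, adjusted p = 1.08e-05), and the two-sided exact permutation test gave p = 0.0286, the smallest that 4 against 4 libraries allow. This goes against the labels. The sources used here do not give the deleted part of the gene, and tags from outside it would check nothing, so every direction below is that of the labels. Summed markers of CD4 T cells (1997 to 2327 CPM against 2206 to 2583) and of Tregs (1770 to 1923 against 1812 to 2030) were present in all libraries, and the sums overlapped between groups. Of the single markers in these lists, Cd4 and Cd3g did not overlap between groups, and all others did. Cd4 had 209.8 to 296.9 CPM against 327.9 to 351.9 (log2 fold change -0.32, adjusted p = 0.357). Cd3g had 152.1 to 169.8 against 111 to 139.7 (0.31, adjusted p = 0.296), and neither gene passed the test. Foxp3, the defining factor of Tregs, had 71.7 to 114 CPM against 93.4 to 195 (log2 fold change -0.42, SE 0.203, adjusted p = 0.655), and its log2 fold change without WT replicate 3, the highest library, was -0.11. Markers of erythroid cells (920 to 3523 against 73.1 to 141 CPM), mast cells or basophils (143 to 368 against 59.3 to 84.0), eosinophils (21.2 to 74.1 against 1.25 to 6.72), myeloid cells (43.5 to 323 against 8.88 to 15.2) and NK or γδ T cells (85.9 to 162 against 33.0 to 50.8) were higher in every library labelled Alox15-/-, and those of B cells lower (6.28 to 8.63 against 9.41 to 21.5). Of the genes tested in these lists, 5 of 6, 7 of 8, 2 of 2, 5 of 5, 4 of 6 and 1 of 2, in that order, passed the test in the direction of the sums. Their part in the values below was not tested.

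Here, 0 of the 62 chaperone genes differed between the groups at an adjusted p under 0.05 (edgeR's quasi-likelihood test with Benjamini–Hochberg adjustment over 12700 genes), where 1.24% of all genes tested did. The smallest adjusted p among the chaperones was 0.574, for Cct2. At an unadjusted p under 0.05 there were 3 genes, Cct2, Dnajc5 and Dnaja4 (4.84%), against 7.84% of all genes. DESeq2 and limma-voom also called 0 of the 62, with 3 and 4 genes at an unadjusted p under 0.05. In 6 of the 62 genes (9.68%) the 4 libraries of one group did not overlap with those of the other, against 5.25% of all genes. Of these, 5 were lower in the libraries labelled Alox15-/- (8.06%), against 2.51% of all genes, namely Hspa9, Dnajc5, Cct2, Cct5 and Cct8, and the other was Dnaja4. Since RNA of whole cultures was counted, fewer cells of a type and less RNA per cell cannot be told apart.

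**Figure D1:**
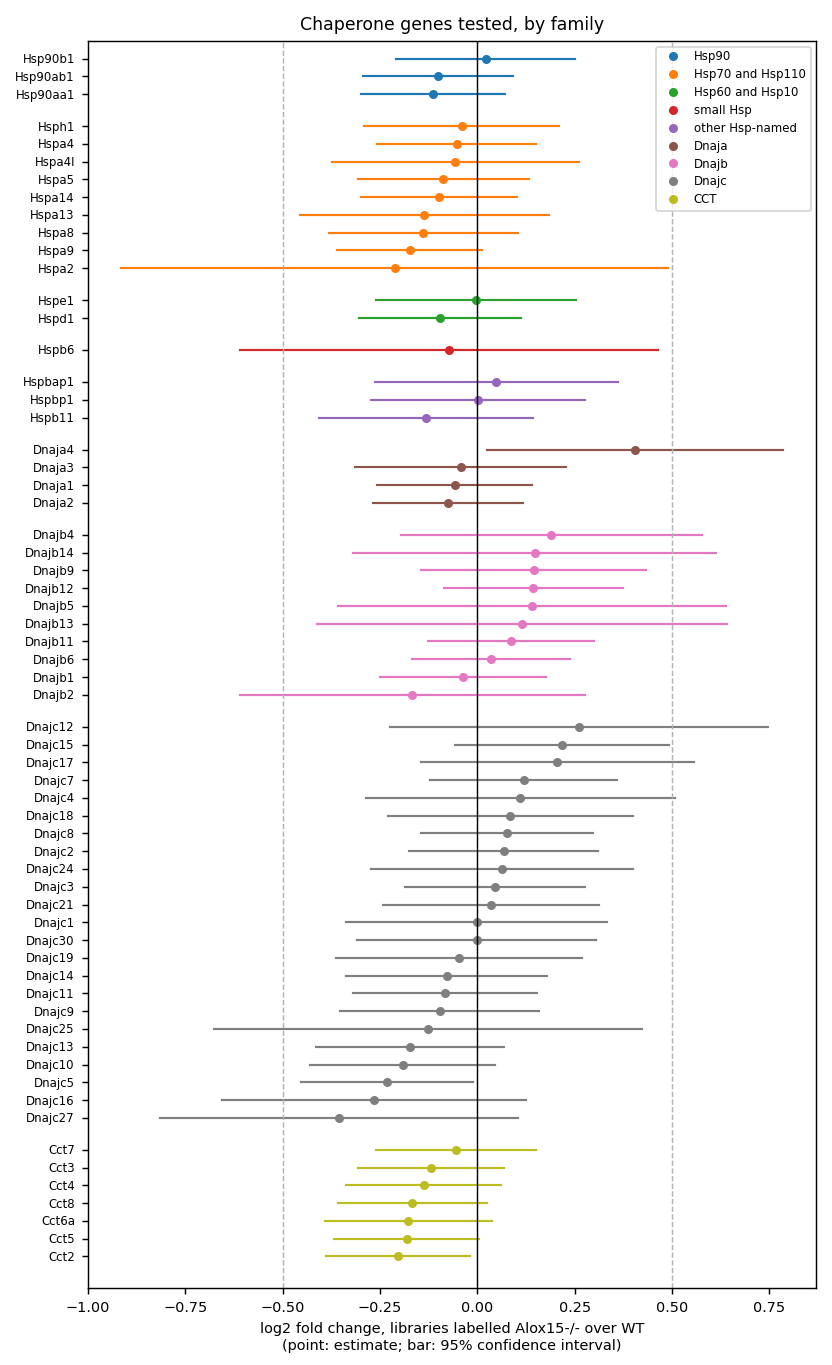
Each row is 1 of the 62 chaperone genes tested, grouped and coloured by family; the x axis is the log2 fold change of the libraries labelled Alox15-/- over WT (4 libraries each), with its 95% confidence interval as a bar and dashed lines at 0.5 in either direction. The 7 CCT genes and the 9 genes of the Hsp70 and Hsp110 family all have estimates below 0, the 14 intervals that reach beyond the dashed lines belong to genes under 20 CPM in WT, and Dnaja4 has the highest estimate, 0.40.

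The intervals of these estimates were narrow for most genes. For 48 of the 62 (77.4%), the 95% confidence interval of the log2 fold change lay inside 0.5 in either direction, a 1.41-fold difference, against 54.9% of all genes tested. The other 14 all averaged under 20 CPM in WT, and for them differences beyond 0.5 in at least one direction remained inside the interval. Log2 fold changes were below 0 for 39 of the 62 (62.9%), against 51.8% of all genes, and their median was -0.054, against -0.0075 over all genes. Estimates this near 0 depended on single libraries: over the fits with 1 library left out, 22 of the 62 crossed 0 in at least 1 fit and 30 others moved by more than 1.5 times in at least 1. The 10 that did neither were Cct2, Cct3, Cct4, Cct5, Cct8, Dnaja4, Dnajb9, Dnajb12, Hsp90aa1 and Hspa9. The plot of fold change against level shows the chaperones close to 0 along the whole range of expression.

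**Figure D2:**
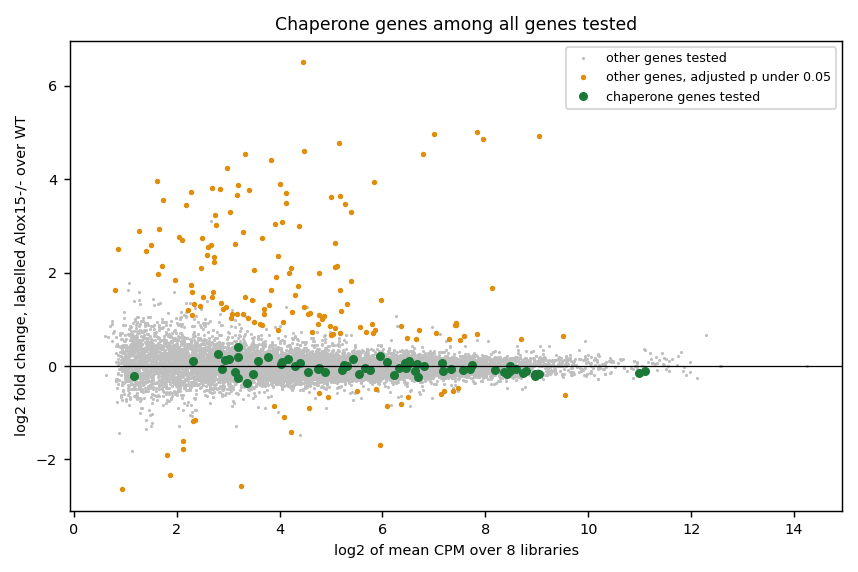
Each point is a gene, with the log2 of its mean CPM over 8 libraries on the x axis and its log2 fold change, libraries labelled Alox15-/- over WT, on the y axis. The 62 chaperone genes (green) lie between -0.36 and 0.40, while the 158 genes past the adjusted threshold (orange), 133 higher and 25 lower, reach 6.51 and -2.64.

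Summed over the 62 genes, the chaperones took 1.10% to 1.17% of all counts in the libraries labelled Alox15-/- and 1.18% to 1.26% in those labelled WT. The sum of scaled CPM was 11270, 11791, 11899 and 11009 in replicates 1 to 4 labelled Alox15-/- and 12023, 12527, 12142 and 12645 in WT. The groups did not overlap, at 11492 ± 423 against 12334 ± 299 (SD, n = 4), or 93.2% of the WT mean. Few genes carry this sum: Hsp90ab1 and Hspa8 were the 2 genes above 1000 CPM, while 18 of the 62 averaged under 20 CPM in WT. By family, the mean as a share of WT was 93.7% for Hsp90, 91.4% for Hsp70 and Hsp110, 96.6% for Hsp60 and Hsp10, 96.3% for Dnaja, 103% for Dnajb, 98.7% for Dnajc and 89.9% for CCT. In each family the libraries of the groups overlapped on this scale. Summed CPM over the column totals, without TMM scaling, did not overlap for CCT.

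**Figure D3:**
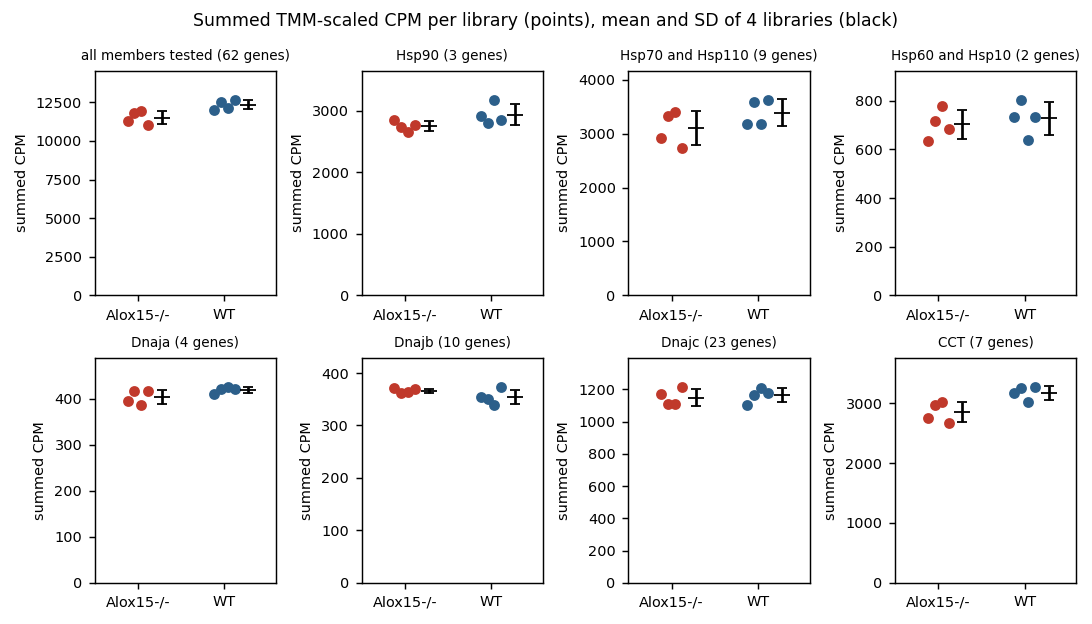
Each panel gives the summed TMM-scaled CPM of a family (y axis, from 0) in the 4 libraries labelled Alox15-/- (red, replicates 1 to 4 from left) and the 4 labelled WT (blue), with the mean and SD in black. The sum over all 62 genes is 11009 to 11899 against 12023 to 12645, and the sums of the single families overlap between groups.

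Hsp90 genes, which hold kinases and steroid receptors ready for activation, were measured with 3 genes, of which 2 had fold changes below 0 and 1 above. Hsp90ab1, the constitutive cytosolic form, had 2208, 2030, 2056 and 2171 CPM in replicates 1 to 4 labelled Alox15-/- and 2250, 2134, 2483 and 2211 in WT. The highest library was WT replicate 3, and the groups overlapped (log2 fold change -0.10, SE 0.090, adjusted p = 0.845). Without that library the log2 fold change was -0.05. Hsp90aa1, the inducible cytosolic form, ranged from 407 to 454 CPM against 440 to 480 (-0.11, SE 0.087, adjusted p = 0.819). Hsp90b1, the form of the endoplasmic reticulum, had 233, 250, 191 and 192 CPM against 210, 227, 216 and 198. Its libraries labelled Alox15-/- fell into a higher and a lower pair around the WT values (0.02, 95% confidence interval -0.21 to 0.25).

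Of the Hsp70 and Hsp110 family, 9 of 14 genes were tested, and all 9 had fold changes below 0, between -0.21 and -0.04 (median -0.10). None passed the test. Hspa8, the constitutive cytosolic Hsp70, had 1726, 2102, 2214 and 1626 CPM in the libraries labelled Alox15-/- and 1967, 2287, 1956 and 2233 in WT. Replicates 1 and 4 labelled Alox15-/- were the lowest of the 8, while replicates 2 and 3 lay within the WT range (-0.14, SE 0.114, adjusted p = 0.833). Hspa8 has 6 near-identical copies among the genes tested, which together held 1484 ± 234 CPM against 1654 ± 113, so that the counts of Hspa8 are uncertain. With their counts added, its fold change was -0.14 (adjusted p = 0.835). Hspa5 (BiP), the Hsp70 of the endoplasmic reticulum, ranged from 259 to 296 CPM against 259 to 345, and overlapped (-0.09, adjusted p = 0.889).

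Hspa9 (mortalin), the mitochondrial Hsp70 that pulls imported proteins through the inner membrane, had 472, 481, 470 and 452 CPM in the libraries labelled Alox15-/- and 521, 507, 509 and 578 in WT. Here every library labelled Alox15-/- was below every WT library (log2 fold change -0.17, SE 0.087, unadjusted p = 0.0652, adjusted p = 0.683). Of the Hsp110 exchange factors, Hspa4 had 183 to 220 CPM against 197 to 224 (-0.05), Hspa4l had 23.8 to 28 against 20.2 to 30.9 (-0.06) and Hsph1 had 72.9 to 82.5 against 67.0 to 93.4 (-0.04). Their groups overlapped, and the WT libraries of Hsph1 enclosed all those labelled Alox15-/-. Hspa4 lies 17.1 Mb from Alox15 on chromosome 11. Hspa14, an Hsp70 bound to ribosomes, gave -0.10, Hspa13, an Hsp70-like protein of microsomes, -0.14, and Hspa2, known from the testis, -0.21 at only 1.30 to 2.94 CPM.

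The inducible genes of the family lay near the limit of detection. Hspa1a (chr17:34969190-34972156, minus strand) had 0.483, 0.271, 0.946 and 2.30 CPM in the libraries labelled Alox15-/- and 0.157, 0.160, 0.605 and 2.52 in WT. Replicate 4 was the highest library of either group. Hspa1b (chr17:34956436-34959238, minus strand) had 0.966, 2.17, 0.946 and 2.01 CPM against 0.627, 0.961, 0.303 and 2.31, again with replicate 4 the highest WT library. Both genes were below the filter and were not tested, and although their coding parts are near identical, the last 300 bases of their transcripts were not near copies of each other. Hspb1 (Hsp27), a small heat shock protein induced with them, had 3 counts in replicate 2 and 1 in replicate 4 labelled Alox15-/-, and 0 in the other 6 libraries, which allows up to 0.314 to 0.733 CPM in these (3 counts per library, counting error only). Of the small heat shock proteins only Hspb6 was tested, at 6.04 to 7.94 CPM against 5.29 to 11.6 (-0.07, 95% confidence interval -0.61 to 0.46). Exons of Lin37 overlap the 3′ end of Hspb6, so that its counts are uncertain.

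**Figure D4:**
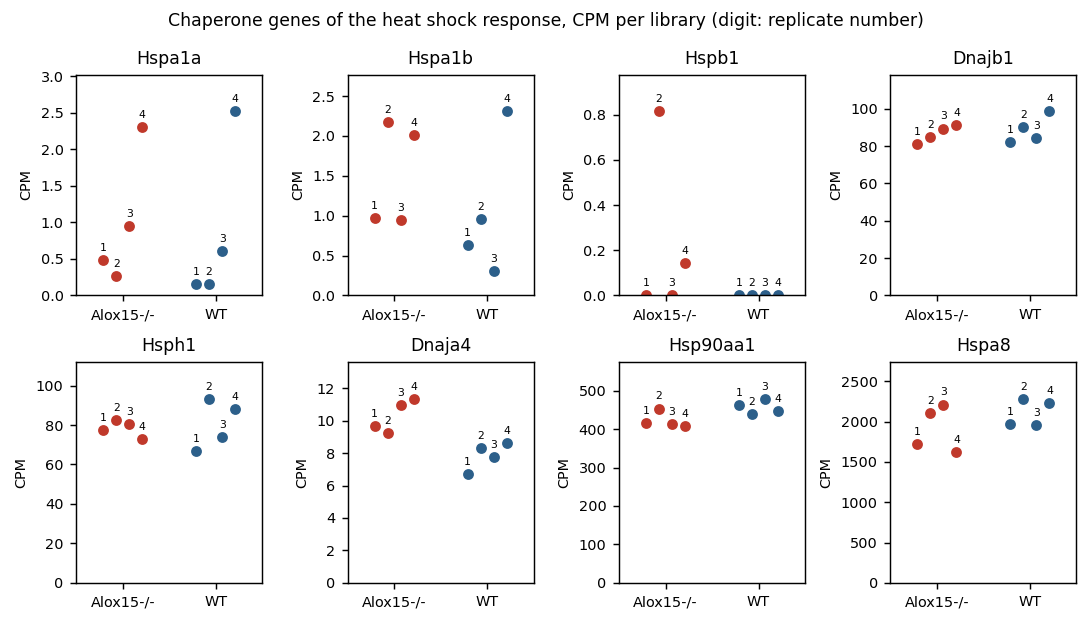
CPM per library (y axis, from 0) for 8 chaperone genes of the heat shock response, constitutive Hspa8 among them, in the libraries labelled Alox15-/- (red) and WT (blue), with the replicate number beside each point. Hspa1a, Hspa1b and Hspb1 stay under 3 CPM in all 8 libraries, Dnaja4 has non-overlapping groups at 9.23 to 11.4 against 6.74 to 8.61 CPM, and the groups of the other genes overlap.

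A list of cytosolic and mitochondrial genes linked to heat shock factor 1 held 13 members, of which 10 were tested. It includes Hspa8 and Hsp90ab1, which are expressed constitutively, and leaves out Dnaja4, so that it is not a list of inducible genes alone. Fold changes were below 0 for 9 and above 0 for 1, with a median of -0.06. Dnajb1 (Hdj1), the DnaJ partner of inducible Hsp70, had 81.1 to 91.1 CPM against 82.3 to 98.6 (-0.04, SE 0.100, adjusted p = 0.964). Dnajb4 had 8.14 to 11 CPM against 7.84 to 9.18 (0.19, SE 0.181, adjusted p = 0.853). Of the 9 tested genes with a heat shock core in the promoter, 7 had fold changes below 0 and 2 above (median -0.06, range -0.36 to 0.40), and of the 41 with a promoter and no match, 23 were below and 18 above (median -0.04). Hsf1, the factor itself, had 23.8 to 27.3 CPM against 25.7 to 32.5 (-0.19, SE 0.131, adjusted p = 0.793).

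Hsp60 and Hsp10, the chamber and lid of the mitochondrial chaperonin, overlapped between groups. Hspd1 had 331, 388, 350 and 312 CPM in the libraries labelled Alox15-/- and 373, 396, 337 and 369 in WT (-0.10, SE 0.097, adjusted p = 0.869). Hspe1 had 303, 328, 428 and 371 against 361, 408, 304 and 364 (-0.00, 95% confidence interval -0.26 to 0.25). The library highest for Hspe1 was replicate 3 labelled Alox15-/-, whereas that highest for Hspd1 was replicate 2 of WT. Over all 8 mitochondrial chaperones tested, 7 had fold changes below 0 and 1 above (median -0.04). The one above was Dnajc15, linked to protein import, with 54.1, 60.0, 77.2 and 74.1 CPM against 55.5, 56.1, 52.2 and 66.1 (0.22, SE 0.129, adjusted p = 0.745).

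The CCT complex is built from 8 subunits in each of its rings, Tcp1 and the products of Cct2 to Cct5, Cct6a, Cct7 and Cct8. All 7 Cct genes tested had fold changes below 0, from -0.20 to -0.05 with a median of -0.17. None passed the test, and all 7 intervals lay inside 0.5, from -0.39 to 0.15. Cct2 (chr10:117051001-117063814, minus strand) had 457, 456, 495 and 445 CPM in the libraries labelled Alox15-/- and 538, 539, 503 and 553 in WT. The groups did not overlap (-0.20, SE 0.086, unadjusted p = 0.0327, adjusted p = 0.574). With 1 library left out, Cct2 kept an unadjusted p under 0.05 only without replicate 3 labelled Alox15-/- or WT replicate 3. Cct5 (chr15:31590800-31601804, minus strand) had 452, 494, 500 and 460 CPM against 534, 509, 569 and 551 (-0.18, SE 0.088, unadjusted p = 0.0555, adjusted p = 0.655). Cct8 (chr16:87483326-87495873, minus strand) had 303, 336, 345 and 307 CPM against 378, 373, 345 and 351 (-0.17, SE 0.090, adjusted p = 0.712). The highest library labelled Alox15-/- lay just under the lowest of WT, and exons of Usp16 overlap its 3′ end.

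The other subunits overlapped between the groups. Cct6a had 488, 549, 509 and 422 CPM against 549, 595, 509 and 571 (-0.18, SE 0.100, adjusted p = 0.733), Cct4 had 376 to 427 against 398 to 474 (-0.14, adjusted p = 0.782), Cct3 had 294 to 335 against 326 to 352 (-0.12, adjusted p = 0.807) and Cct7 had 336 to 413 against 361 to 417 (-0.05, adjusted p = 0.931). Tcp1, which the symbol rule leaves out, had 497, 572, 593 and 480 CPM against 608, 597, 582 and 663 (-0.19, SE 0.098, adjusted p = 0.683). Replicates 1 and 4 labelled Alox15-/- gave the lowest values of Tcp1 and the lowest sums of the 7 Cct genes, at 2758 and 2663 CPM. Replicates 2 and 3 gave 2968 and 3025, the latter above the lowest WT library at 3011. Cct6b, a form of the testis 12.4 Mb from Alox15, had at most 1.6 CPM and was not tested.

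**Figure D5:**
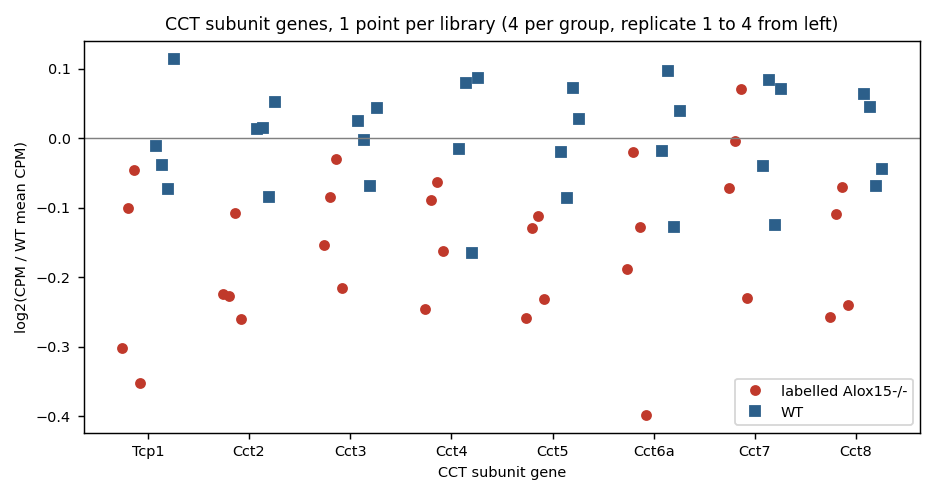
For each CCT subunit gene, the log2 of CPM over the mean CPM of WT is shown in the 4 libraries labelled Alox15-/- (red circles, replicates 1 to 4 from left) and the 4 labelled WT (blue squares). For Cct2, Cct5 and Cct8 the groups do not overlap, and replicate 4 labelled Alox15-/- is the lowest library for Tcp1, Cct2, Cct3, Cct6a and Cct7.

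The proportions among the subunits were compared as a description, with no test. As a share of the summed CPM of Tcp1 and the 7 Cct genes, Cct2 was 12.9% to 14.2%, Cct3 8.88% to 9.44%, Cct4 11.1% to 12.7% and Cct5 13.3% to 15.8% over the 8 libraries. Cct6a was 13.4% to 15.5%, Cct7 10.1% to 11.5%, Cct8 8.93% to 10% and Tcp1 15.3% to 16.9%. For each of the 8 genes these shares overlapped between the groups, and the means differed most against their spread for Cct7 (11.2% ± 0.378 against 10.4% ± 0.371, SD, n = 4) and Cct3 (9.29% ± 0.148 against 9.03% ± 0.141). A list of 40 genes of the wider network outside the rule held prefoldins, cochaperones and proteases, with Tcp1 and chaperones such as Hyou1. All 40 were tested and 0 passed, with 17 fold changes above 0 and 23 below (median -0.03). An unadjusted p under 0.05 was found for 4 of the 40, where 7.84% of all genes tested had one. Of these 4, Bag6 (-0.26) and Unc45a (-0.24) were below 0, and Sugt1 (0.27) and Sdf2l1 (0.37) above.

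Class A DnaJ proteins, the general Hsp70 partners, included the single gene of the 62 tested whose libraries labelled Alox15-/- all lay above WT. Dnaja4 (chr9:54698873-54716315, plus strand), a cytosolic member, had 9.66, 9.23, 11 and 11.4 CPM against 6.74, 8.33, 7.77 and 8.61. The groups did not overlap, and the log2 fold change was 0.40 (95% confidence interval 0.02 to 0.79, unadjusted p = 0.0388, adjusted p = 0.608). With 1 library left out, Dnaja4 kept an unadjusted p under 0.05 only without replicate 1 or 2 labelled Alox15-/- or WT replicate 4. Exons of Wdr61 overlap the 3′ end of Dnaja4, and the sources used here do not say whether counting used the strand. Such overlaps were also annotated for Dnaja1 (Smu1), Hspa13 (Gm15553), Dnajc1 (Mllt10), Dnajc30 (Bud23) and Hspa1a (Gm20481), among others. Dnaja1 had 149 to 167 CPM against 152 to 175 (-0.06, adjusted p = 0.921), Dnaja2 had 170 to 200 against 189 to 200 (-0.08, adjusted p = 0.889), and the mitochondrial Dnaja3 had 44.4 to 52.9 against 45.1 to 63.6 (-0.04).

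Class B had a median of 0.13, which was 0.04 without WT replicate 3, with 8 of 10 tested genes above 0 and 2 below, and 0 past the test. Dnajb6, which holds back aggregation, had 97.6 to 110 CPM against 93.9 to 106 (0.03, SE 0.096), and Dnajb12, an anchor of Hsp70 at the reticulum membrane, had 49.7, 44.2, 42.0 and 45.3 CPM against 38.7, 39.1, 43.8 and 42.2 (0.14, SE 0.108, adjusted p = 0.813). Dnajb12 was highest in replicate 1 labelled Alox15-/-, and the groups overlapped. Dnajb11 and Dnajb9, cofactors of BiP inside the reticulum, had 67.7 to 72.2 against 59.3 to 71.8 CPM (0.09) and 17.8 to 20.4 against 15.7 to 17.9 (0.14). Dnajb14, a relative of Dnajb12, gave 0.15, which was 0.02 without WT replicate 3, and Dnajb2 gave -0.17, which was -0.39 without replicate 3 labelled Alox15-/- and -0.08 without WT replicate 4. Of the 10 genes, 6 averaged under 20 CPM in WT and 5 intervals reached beyond 0.5.

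Class C holds DnaJ proteins with specialised clients, and its 23 tested genes were divided into 11 above and 12 below 0, with a median of -0.00. Dnajc5 (chr2:181520485-181555133, plus strand), the cysteine string protein of secretory vesicles, had 91.7, 94.5, 91.3 and 99.8 CPM in the libraries labelled Alox15-/- and 106, 101, 107 and 130 in WT. The groups did not overlap, replicate 4 of WT stood above the others, and the log2 fold change was -0.23 (SE 0.104, unadjusted p = 0.0401, adjusted p = 0.614). Without that library it was -0.15 and no longer had an unadjusted p under 0.05. The same loss was seen without replicate 1, 2 or 3 labelled Alox15-/-. Dnajc27, with a GTPase domain, had 7.87 to 11.2 CPM against 8.94 to 14.9 (-0.36, SE 0.216, adjusted p = 0.753), and -0.18 without WT replicate 3. Dnajc8, a partner of splicing factors, had 131 to 161 CPM against 126 to 155 (0.08), and Dnajc9, a chaperone of histones, had 131 to 159 against 124 to 182 (-0.10). The groups overlapped for both.

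Other class C genes stayed within the same range. Dnajc7, which passes clients between Hsp70 and Hsp90, had 83.8 to 108 CPM against 78.4 to 100 (0.12), Dnajc2, bound to ribosomes, had 75.1 to 96.1 against 72.4 to 90.5 (0.07), and Dnajc21, of ribosome assembly, had 35.3 to 42.2 against 30.4 to 43.1 (0.03). Dnajc13, a protein of endosomes, had 50.5, 45.6, 37.3 and 42.7 CPM in the libraries labelled Alox15-/- and 49.4, 49.2, 49.1 and 50.2 in WT. Its WT libraries lay close together, with 3 of the 4 labelled Alox15-/- below them and the other above (-0.17, SE 0.113, adjusted p = 0.775). Dnajc12 gave 0.26 (95% confidence interval -0.23 to 0.75), and Dnajc16 gave -0.26 (-0.66 to 0.13), both under 12 CPM in every library. For the 8 remaining genes, the fold changes lay between those of Dnajc11 (-0.08) and Dnajc17 (0.20), and their groups overlapped.

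Chaperones of the endoplasmic reticulum did not lean to one side, with 6 of 11 tested genes above 0 and 5 below (median 0.02). The 3 genes with a reticulum stress element were Hspa5 at -0.09, Hsp90b1 at 0.02 and Dnajc3 at 0.04, the last at 88.4 to 95.2 CPM against 76.0 to 104. Dnajc10, which reduces disulphide bonds of misfolded proteins, had 73.6, 72.7, 65.4 and 67.2 CPM against 79.7, 93.4, 76.0 and 68.8 (-0.19, SE 0.111, adjusted p = 0.738). Dnajc1 had 32.0 to 49.6 CPM against 33.2 to 45.3 (-0.00), and Dnajc25 had 6.76 to 11.1 against 6.56 to 14.5 (-0.13). Hyou1, the Hsp110 of the reticulum, which the symbol rule leaves out, had 23.1 to 36.5 CPM against 19.6 to 28.7 (0.13, SE 0.168, adjusted p = 0.905). Without replicate 3 labelled Alox15-/- its log2 fold change was -0.03. Of 18 other genes of the unfolded protein response, 7 were above 0 and 11 below, and 0 passed the test (median -0.01). Eif2ak3 (PERK), a sensor of that response, was the 1 gene of the 18 at an unadjusted p under 0.05 (-0.35, SE 0.165, adjusted p = 0.637). Of all genes tested, 7.84% had such a p.

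Not all listed chaperones were expressed at a level that could be compared. The 15 genes below the filter included Hspa12a, Hspa12b and Hspa1l of the Hsp70 family, Hspb9, Dnajb3 and Dnajb8, and Dnajc5b, Dnajc5g, Dnajc22 and Dnajc28. By the fourth highest library, the lowest gene inside the filter was Hspa2 at 2.42 CPM and the highest outside was Dnajc6, known from neurons, at 1.25. Outside these families the symbol rule took Hspb11, Hspbap1 and Hspbp1. Hspb11, of intraflagellar transport, gave -0.13, Hspbap1, which binds a small heat shock protein, 0.05, and Hspbp1, an exchange factor of Hsp70, 0.00.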

How the data were processed

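Tregs were differentiated for 2 days from naïve splenic CD4+ T cells of mice labelled Alox15-/- and WT (4 libraries each). Their RNA was profiled by MACE-seq, which counts tags near the 3′ end of transcripts. The labels name a small RNA kit instead. Counts were deposited by the authors for each gene symbol and library, raw and not normalized. The submitters' processing notes name Bowtie, edgeR and GRCm38, with versions not given in the sources used here. The columns were mapped by name. Counts were not divided by transcript length, and the study's methods give the filter of 2 CPM in at least 4 libraries.

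From these counts, CPM were scaled by TMM and groups compared in edgeR 4.0.16 (R 4.3.3) by the two-sided quasi-likelihood test over all 12700 genes past the filter, with Benjamini–Hochberg adjustment and a threshold of 0.05. The SE is the log2 fold change over the square root of F. The paper gives n = 4 Alox15-/- mice for these data, and WT has 4 libraries. Depth, 3723151 to 9538962 counts, limits genes of a few CPM. The fit was tested on simulated data. Alternatives were run with DESeq2 1.42.0 and limma 3.58.1. Positions and transcripts are GENCODE's on GRCm38, and near copies were found with blastn 2.17.0 (at least 95% identity over 100 bases of the last 300).

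Members and lists were chosen with earlier results of these data known. The rule for named genes took those at an unadjusted p under 0.05. In each family it took the 2 most abundant genes and the most different one. It also took whole families and lists of interest, and members within 20 Mb of Alox15. Genes beside the filter were to be counted, not named. Chosen after their values were seen were the genes whose groups did not overlap, the 3 otherwise named Hsp genes, the genes below the filter, the near copies, the 4 cochaperones, Eif2ak3, Cd4, Cd3g, Dnaja3, Hspa14, Dnajb2 and the other Dnajc genes given. Protein sequences were not analysed here.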

Additional observations from a re-analysis of the deposited data

Results flagged for a closer look

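Each tested chaperone, each family sum, Hspa1a, Hspa1b and the tested genes named outside the families were examined for a library far from the other three of its group (Dixon's test at 95%). Of 172 groups of 4 libraries, 6 had such a library, where chance gives about 5% of groups. Dnajb2 was at 14.9 CPM in replicate 3 labelled Alox15-/-, against 8.92 to 8.96 in the other three. Hspbp1 was at 134 CPM in that same library, against 102 to 106. Dnajc9 was at 159 CPM in replicate 4 labelled Alox15-/-, against 131 to 135. Dnajc30 was at 23.8 CPM in replicate 1 of WT, against 18.1 to 18.7, and Hspa14 was at 110 CPM in replicate 2 of WT, against 99.4 to 101. Foxp3, which is no chaperone, was at 195 CPM in replicate 3 of WT, against 93.4 to 109.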

How the results depend on the processing

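Across 16 alternatives (scaling, filter, test, replicate block and each library left out), 0 chaperones passed the adjusted threshold. The count at an unadjusted p under 0.05, 3 in the main test, was 5 without a filter (of 77 genes; Dnajc22, Hspa12b and Hspb1 among them were not tested in the main test, and Dnaja4 was lost), 1 with upper quartile scaling, 0 with the replicate block, and 1 to 5 with a library left out (5 without WT replicate 3, 1 without replicate 2, 3 or 4 labelled Alox15-/- or WT replicate 1 or 2). The Cct genes tested were all below 0, except Cct7 at 0.0013 without replicate 4 labelled Alox15-/-. All genes past the threshold were 158 in the main test, 388 without a filter and 86 to 172 with a library left out. Replicate numbers did not pair the libraries (correlations -0.178 to 0.165); a block called 146 genes. The median over all chaperones was -0.0262 with upper quartile scaling, -0.0762 without a filter and -0.0672 to -0.0208 with a library left out; the last ranges were -0.2082 to 0.2575 for Hspb6, the 1 small heat shock gene (highest without WT replicate 3), 0.0423 to 0.1258 for Dnajb and -0.0208 to 0.0496 for Dnajc. Fold changes near 0 crossed it. Dnajc1 was 0.0021 with RLE scaling, 0.0276 with upper quartile scaling, 0.0007 with filterByExpr and 0.0028 with limma-voom. Hspe1 was 0.0008 with RLE scaling and with DESeq2, 0.0255 with upper quartile scaling and 0.0009 with near copies added, an alternative chosen after seeing the data. Without a filter Hsp90b1 was -0.0017 and Hspbp1 -0.0204. With a library left out, the ranges were -0.0716 to 0.0192 for Dnajb1, -0.1395 to 0.089 for Dnajc1, -0.2726 to 0.1509 for Dnajc25, -0.0208 to 0.1309 for Dnajc3, -0.1723 to 0.016 for Dnajc9, -0.0528 to 0.0837 for Hsp90b1, -0.321 to 0.0027 for Hspa2, -0.1774 to 0.0044 for Hspa4l, -0.0036 to 0.1146 for Hspbap1, -0.094 to 0.1258 for Hspbp1, -0.0961 to 0.0696 for Hspe1, -0.1189 to 0.0391 for Hsph1 and -0.0927 to 0.0013 for Cct7. The cause was not tested.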
